A study of Drosophila melanogaster with 12 samples.

Results

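The odorant-binding protein (Obp) genes of Drosophila melanogaster were followed in whole female flies, in ribosome footprints (Ribo-Seq, the RNA fragments that ribosomes protect from RNase I) and in RNA-Seq. Members were taken by name, as every gene whose symbol is Obp followed by a digit. The annotation holds 51 such genes, and 40 of them have a row in the table of counts, among 12759 protein-coding genes. The other 11, which are Obp46a, Obp47a, Obp50a, Obp50c, Obp50d, Obp56b, Obp57d, Obp58c, Obp58d, Obp73a and Obp85a, had no row and were not analysed here.

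Wild-type females of the outbred Dahomey background were labelled White Dahomey. The Polr3D EY/+ females, labelled dC53EY22749, were heterozygous for a P element inserted in the gene of an RNA polymerase III (Pol III) subunit, and the insertion had been backcrossed into Dahomey. The background carries an eye-colour mutation, used to track the insertion, and is free of Wolbachia. The labels name cycloheximide for the Ribo-Seq samples and no other treatment, and the age of these flies is not given in the sources used here. The comparison asks whether lower Pol III function alters which mRNAs are translated.

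Counts were available for 3 wild-type and 3 Polr3D EY/+ Ribo-Seq libraries, and 2 wild-type and 3 Polr3D EY/+ RNA-Seq libraries. The RNA-Seq sample of wild-type replicate 3 has no counts here. The paper removed this replicate because its RNA-Seq clustered away from the other samples. Nothing in the labels says that replicates were separate collections of flies, so p-values measure the spread between these libraries, which may be technical. Protein-coding features held 24299908 to 28718489 counts per RNA-Seq library and 1127599 to 3192166 per Ribo-Seq library, where they were 1.90% to 3.67% of all counts. Values are given in CPM, the usual counts-per-million scale, taken over the protein-coding counts of the same library. A count of 3 was thus worth 0.104 to 0.123 CPM in RNA-Seq and 0.940 to 2.66 CPM in Ribo-Seq. The targeted gene followed the labels, since Polr3D RNA was at 51.7 and 63.6 CPM in wild type and at 30.5, 29.6 and 30.5 CPM in Polr3D EY/+ flies. All markers with a row for fat body, ovary, midgut, flight muscle, eye, glia and neurons reached 1 CPM, against 1 of 7 markers of the olfactory and taste organs (Snmp1). In whole flies, fewer cells of a type and less RNA per cell cannot be told apart.

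Odorant-binding proteins are small soluble proteins, folded around a hydrophobic pocket and held by disulphide bridges. Support cells of the smell and taste bristles secrete them into the lymph around the neuron, where they bind small hydrophobic molecules such as odorants, pheromones and bitter compounds. The family is wider than the nose, and some members are made in glia, in fat body, or in the male reproductive tract, whose secretions pass to the female in the ejaculate. Most of the genes lie in tandem clusters named for their cytological position.

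Part of the family was expressed at the level of the whole fly. With a minimum of 1 CPM as the mean over the 5 RNA-Seq libraries, 20 of the 40 members were expressed, against 72.3% of all protein-coding genes. A mean of at least 10 footprints over the 6 Ribo-Seq libraries was reached by 17 members, all of them among the 20, against 59.6% of all protein-coding genes with both minimums. The lowest member inside the RNA minimum was at 1.11 CPM and the highest outside it at 0.827 CPM. Of the 20 below it, 18 had at least 1 RNA count, and 7 never had more than 3 counts in any library of either assay.

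**Figure D1:**
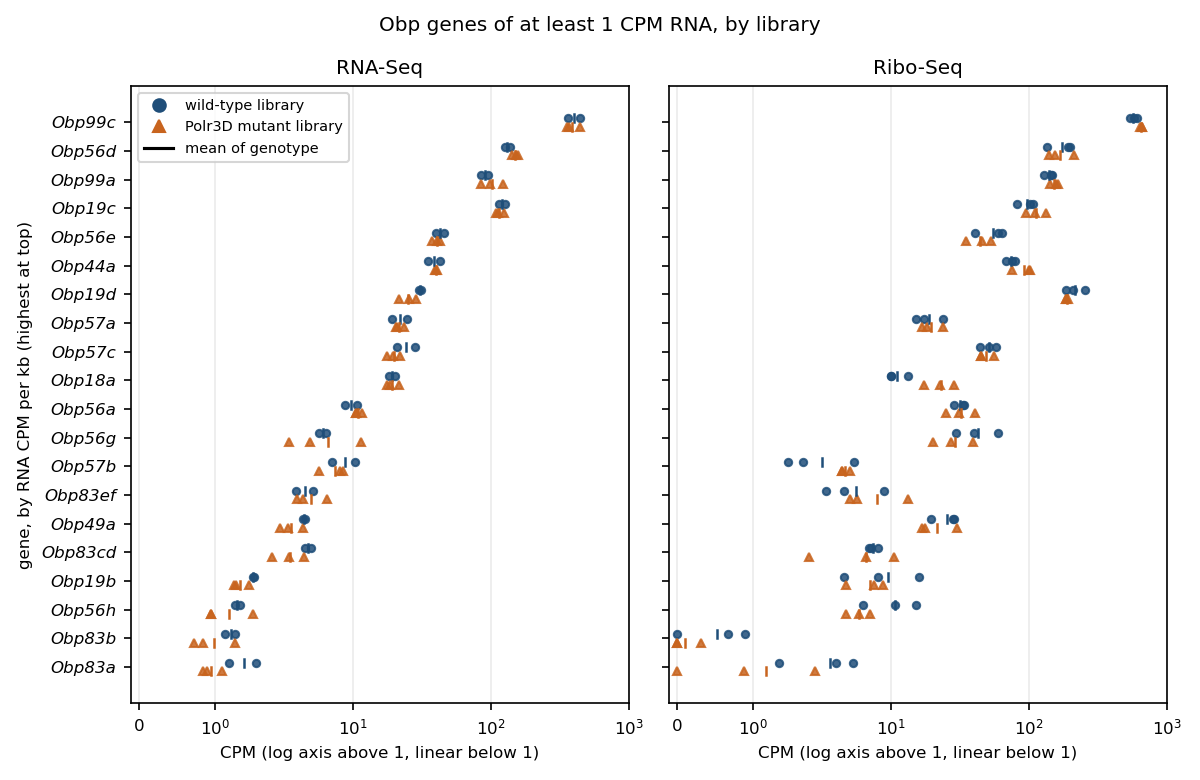
RNA (left) and footprint (right) CPM of the 20 expressed Obp genes, ordered by RNA CPM per kb of transcript, on an axis that is logarithmic above 1 and linear below. Circles are wild-type and triangles Polr3D EY/+ libraries, and short vertical bars are genotype means. Obp99c stands at the top of both panels, and Obp19d is at 21.6 to 31.1 CPM in RNA but 186.2 to 255.4 CPM in footprints.

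Obp99c (FBgn0039682, chromosome 3R from 29685736 to 29689311, minus strand) was the highest member. Its RNA was at 447.2 and 362.6 CPM in the wild-type libraries and at 369.3, 443.8 and 354.7 CPM in the Polr3D EY/+ libraries. Its footprints were at 578.2, 605.7 and 539.7 CPM in wild type and at 636.3, 665.1 and 666.0 CPM in Polr3D EY/+ flies. The RNA ranges of the genotypes overlapped, whereas all 3 Polr3D EY/+ footprint libraries lay above all 3 wild-type ones. Per kb of transcript Obp99c RNA ranked 171 of 12759 protein-coding genes, 2.82-fold above the next member, Obp56d. It made up 40.6% ± 1.98 (SD, n = 5) of all Obp counts in RNA-Seq and 38.4% ± 3.05 (n = 6) in Ribo-Seq.

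Summed over the 40 members, Obp RNA reached 973.8 ± 85.1 CPM (SD, n = 2) in wild-type and 969.6 ± 74.8 CPM (n = 3) in Polr3D EY/+ flies. Summed footprints were 1570 ± 57.6 CPM (n = 3) and 1632 ± 94.8 CPM (n = 3). In both assays the libraries of the genotypes overlapped in their sums. The family therefore took 0.0914% to 0.106% of the protein-coding counts of an RNA-Seq library and 0.151% to 0.173% of those of a Ribo-Seq library.

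The neighbours of Obp99c differed widely from it. Obp99a (FBgn0039678, 3R from 29671657 to 29672334, plus strand) was at 96.2 and 84.3 CPM of RNA in wild type and at 99.1, 122.8 and 84.9 CPM in Polr3D EY/+ flies. Footprints of Obp99a were at 128.3, 146.3 and 145.8 CPM against 162.4, 156.6 and 141.3 CPM, and the genotypes overlapped in both assays. Obp99b, known as turn on sex-specificity for its male-biased level in fat body, had 9 to 26 RNA counts a library and 0 to 5 footprints. Obp99d had 1 to 4 RNA counts.

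The Obp56 cluster on chromosome 2R held expressed and silent members side by side. Obp56d (FBgn0034470, 19702924 to 19703915, minus strand) was at 125.8 and 138.3 CPM of RNA in wild type and at 142.3, 152.1 and 158.4 CPM in Polr3D EY/+ flies, with no overlap. Its footprints, at 191.2, 135.7 and 199.2 CPM in wild type and 212.4, 154.1 and 139.6 CPM in Polr3D EY/+ flies, did overlap. Obp56e (FBgn0034471, 19712345 to 19712932, plus strand) was at 40.4 and 45.7 CPM of RNA in wild type and at 40.8, 37.6 and 42.9 CPM in Polr3D EY/+ flies. Footprints of Obp56e were at 64.2, 40.8 and 59.5 CPM against 52.7, 34.8 and 45.4 CPM. The next gene along, Obp56f, had at most 1 RNA count in 4 of the 5 RNA-Seq libraries, and Obp56c and Obp56i had counts in 1 RNA-Seq library and 0 footprints. Obp56a, Obp56g and Obp56h were expressed at lower levels, with mean RNA of 19.0, 12.8 and 2.49 CPM per kb.

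In the Obp19 cluster on the X chromosome, 3 of 4 members were expressed. Obp19c (FBgn0031111, 20417921 to 20418964, minus strand) was at 127.1 and 115.1 CPM of RNA in wild type and at 109.0, 123.9 and 113.4 CPM in Polr3D EY/+ flies, the smallest coefficient of variation of the expressed members (6.42% over 5 libraries, against a median of 15.9%). In footprints it was at 107.6, 102.0 and 82.4 CPM against 110.6, 133.5 and 95.03 CPM. Obp19d (FBgn0011280, 20419613 to 20420979, plus strand), found in sensory organs outside the lymph of the bristle, is described with its footprints below. Obp19b, a taste gene linked to the detection of amino acids, was at 1.36 to 1.92 CPM of RNA, and Obp19a had 4 to 7 RNA counts.

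The Obp57 cluster on chromosome 2R is best known for Obp57d and Obp57e, taste genes that affect how flies respond to the acids of noni fruit. Obp57e had at most 3 counts in any library. Obp57a (FBgn0043535, 20505150 to 20505758, plus strand) was at 24.6 and 19.3 CPM of RNA in wild type and at 20.4, 23.4 and 21.0 CPM in Polr3D EY/+ flies. Obp57c (FBgn0034509, 20503584 to 20504202, plus strand) was at 28.0 and 20.8 CPM against 17.5, 22.0 and 19.6 CPM. The 2 genes thus had nearly the same RNA level, at 38.9 ± 3.88 and 38.7 ± 7.07 CPM per kb (SD over 5 libraries). Their footprints were far apart, with Obp57a at 17.4, 23.9 and 15.3 CPM in wild type and 23.7, 18.2 and 16.8 CPM in Polr3D EY/+ flies. Obp57c footprints were at 44.1, 57.6 and 51.1 CPM in wild type and at 56.2, 45.1 and 44.6 CPM in Polr3D EY/+ flies, above Obp57a in every library. Obp57b, between them, was expressed in RNA but had 2 to 14 footprints a library.

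Obp44a (FBgn0033268, 2R from 8134170 to 8135315, minus strand) is abundant in glia of the brain, where it carries fatty acids. Its RNA was at 43.0 and 34.9 CPM in wild type and at 39.1, 40.1 and 40.4 CPM in Polr3D EY/+ flies. Obp44a footprints were at 68.2, 78.9 and 74.8 CPM against 100.0, 101.5 and 74.8 CPM, a pair of ranges that overlapped only at the lowest Polr3D EY/+ library. Its exons share 205 bases with Pabp2 on the opposite strand, and whether the counting used strand is not given in the sources used here. Obp18a (FBgn0030985, X from 19135081 to 19135868, minus strand) was at 20.2 and 18.4 CPM of RNA in wild type and at 17.8, 21.5 and 18.5 CPM in Polr3D EY/+ flies.

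Several members with a known sensory role, named here after their values were seen, had low counts. Obp83a and Obp83b, abundant in the lymph of antennal bristles, were the lowest of the 20 expressed, at 0.836 to 1.97 and 0.725 to 1.40 CPM of RNA, and both missed the footprint minimum. Obp28a, another abundant antennal protein, had 16 to 27 RNA counts and 1 to 7 footprints. Obp59a, needed for humidity sensing, had 3 to 7 RNA counts and 0 footprints, and Obp69a and Obp84a had at most 7 and 9 RNA counts. The family member lush, which binds the male pheromone cVA and lacks the Obp name, had 4 and 2 RNA counts in wild type, 4, 1 and 4 in Polr3D EY/+ flies, and 0 footprints. Orco, the co-receptor of the odorant receptors, had 5 to 14 RNA counts.

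Other genes of the chemosensory periphery stood as follows. Of 118 chemoreceptor genes with a row (odorant, gustatory and ionotropic receptors and 3 pickpocket genes), 6 reached 1 CPM of RNA, namely Ir40a, Ir51b, Ir76a, Ir7c, Or43b and ppk29. In footprints 1 receptor gene differed between libraries far beyond the rest: Ir7b had 6558, 12323 and 31405 counts in wild-type replicate 2 and Polr3D EY/+ replicates 1 and 3, at most 31 in the other 3 Ribo-Seq libraries, and 5 to 12 RNA counts. Its counts are part of the protein-coding total behind footprint CPM, where it took 26410 CPM in the highest library. Of 3 insect chemosensory proteins, CG30172 and Phk-3 reached 1 CPM of RNA. Both sensory neuron membrane proteins, Snmp1 and Snmp2, reached it, as did 5 of 13 CheA and CheB genes. None of these, and not lush, was called between the genotypes in RNA, footprints or translation efficiency.

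Most expressed Obp mRNAs carried more footprints per RNA than the median gene. The measure is the log2 ratio of footprint CPM per kb of coding sequence to RNA CPM per kb of transcript, with 0.5 counts added. Lengths are means over the transcripts of a gene, weighted by their RNA counts. It is taken within the 5 replicate numbers that have both assays. Same-numbered libraries of the assays deviated with correlations of -0.080 to -0.015, so single ratios and their SD depend on a pairing that was not seen in the data. With the RNA minimum alone, its median over the 20 expressed members was 1.07, against 0.23 over 9221 genes (quartiles -0.57 and 0.96), and 17 of the 20 lay above the all-gene median and 12 above the upper quartile. The 3 below it were Obp57a, Obp57b (-0.16) and Obp83b (-0.43). With the footprint minimum as well, which keeps a low RNA more readily where its ratio is high, the median was 1.10 over 17 members and 0.29 over 7603 genes (quartiles -0.45 and 0.99). Of the 3 members it removed, Obp83a was at 1.70, on 0 to 9 footprints a library. Genes of the same range of coding length (384 to 735 nt, 1182 genes) and with both minimums had a median of 0.48. Without scaling to length the medians were 0.79 and -0.19. Both genotypes gave this order, with Obp medians of 1.06 in wild-type and 1.18 in Polr3D EY/+ flies.

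**Figure D2:**
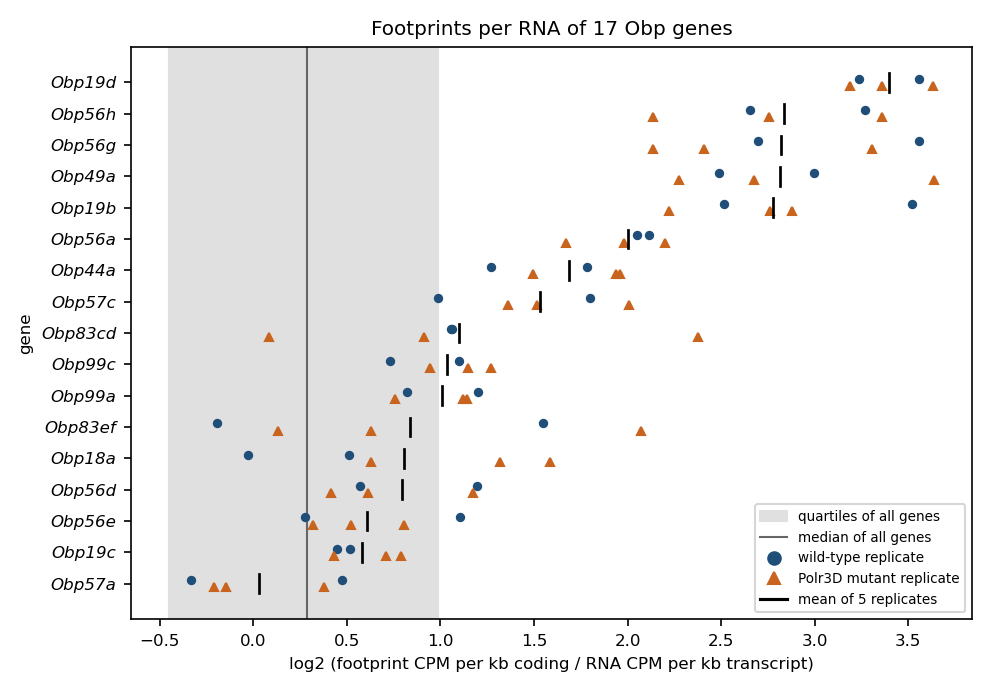
Footprints per RNA (log2, length-scaled) of the 17 Obp genes with both minimums. Circles are wild-type and triangles Polr3D EY/+ replicates, vertical bars the mean of 5 replicates, and the grey band and line the quartiles and median of 7603 genes. Obp19d lies highest at a mean of 3.40, Obp57a lowest at 0.03, and 16 of 17 means are right of the all-gene median.

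Obp19d had the highest mean ratio. Its RNA was at 30.3 and 31.1 CPM in wild type and at 21.6, 25.3 and 28.6 CPM in Polr3D EY/+ flies, which put it at position 2518 by RNA per kb among all protein-coding genes. Its footprints were at 255.4, 210.2 and 186.2 CPM in wild type and at 191.3, 186.4 and 186.7 CPM in Polr3D EY/+ flies, position 438 by footprints per kb. Per replicate the log2 ratio was 3.56 and 3.24 in wild type and 3.63, 3.36 and 3.19 in Polr3D EY/+ flies. The mean of 3.40 ± 0.19 (SD, n = 5) was at percentile 98.9 of all genes. Obp19d was the highest member in 3 of the 5 replicates, and Obp56g (3.56) lay above it in wild-type replicate 2 and Obp49a (3.64) in Polr3D EY/+ replicate 1. Obp19d RNA was at 43.6 ± 6.26 CPM per kb (SD over 5 libraries). Its 2 nearest neighbours in rank were Obp44a, higher at 60.9 ± 4.56, and Obp57a, close to it at 38.9 ± 3.88. In every Ribo-Seq library the footprint CPM of Obp19d exceeded theirs.

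Behind it came a group at nearly 1 level. Obp56h was at 2.83 ± 0.50, Obp56g at 2.82 ± 0.60, Obp49a at 2.82 ± 0.53 and Obp19b at 2.78 ± 0.48 (log2, SD, n = 5), values that did not differ beyond their spread. All 4 had modest RNA. Obp56h (FBgn0034475, 2R from 19815554 to 19816204, plus strand), which affects mating behaviour, was at 1.51 and 1.39 CPM of RNA in wild type and at 0.947, 0.940 and 1.89 CPM in Polr3D EY/+ flies. In footprints Obp56h was at 10.7, 6.21 and 15.3 CPM against 7.02, 4.70 and 5.89 CPM, that is, 7 to 20 counts a library. Obp49a, a taste protein through which bitter compounds curb the response to sugar, was at 2.96 to 4.45 CPM of RNA and 16.8 to 29.8 CPM of footprints.

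At the other end stood Obp57a at 0.03 ± 0.37, Obp19c at 0.58 ± 0.16 and Obp56e at 0.60 ± 0.35 (log2, SD, n = 5). Obp57a lay below the all-gene median, and Obp19c and Obp56e above it. Among the most abundant members, Obp99c at 1.04 ± 0.21 and Obp99a at 1.01 ± 0.20 were close to the upper quartile of all genes. Across the 17 members Spearman's rho of footprints per RNA with RNA per kb was -0.53, and -0.10 across all 7603 genes, where RNA enters both measures and the points share the same libraries. Footprints per kb followed RNA per kb over the same 17 (rho 0.89).

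The difference between the assays was tested gene by gene in the DESeq2 model, without scaling to length and relative to the typical gene. Called at an adjusted p under 0.1, 13 of the 20 expressed members had more footprints than RNA, and none had fewer. In a fit limited to genes with a mean of 10 counts in each assay, 14 expressed members were called higher and 0 lower. Of all features in that fit, 38.8% were called higher and 38.6% lower. The expressed member Obp57b was called lower in several of the alternative fits given below. Over all 40 members, of which 32 had an adjusted p, 19 were called higher and 1 lower, against 32.4% higher and 30.4% lower of the 11861 features tested. The higher calls outside the expressed members (Obp19a, Obp28a, Obp50e, Obp51a, Obp83g and Obp99b) rested on few counts. Obp50e had 0 RNA counts and at most 3 footprints a library. Obp19a and Obp83g had at most 7 RNA counts and 5 footprints a library, and all 61 RNA counts of Obp51a were in 1 library. The call with the smallest adjusted p was Obp19d, with a log2 difference of 3.15 (SE 0.12, adjusted p = 2.28e-147). Among the other members, Obp56g was at 2.77 (SE 0.33, adjusted p = 3.11e-16), Obp49a at 2.73 (SE 0.27, adjusted p = 3.91e-23) and Obp56h at 2.64 (SE 0.41, adjusted p = 6.71e-10). Obp19b was at 2.62 (SE 0.37, adjusted p = 6.03e-12), Obp56a at 1.85 (SE 0.19, adjusted p = 7.06e-21) and Obp57c at 1.40 (SE 0.19, adjusted p = 5.24e-13). Obp99c was called at 0.88 (SE 0.11, adjusted p = 1.18e-14), Obp99a at 0.82 (SE 0.12, adjusted p = 2.10e-10) and Obp44a at 1.29 (SE 0.15, adjusted p = 1.67e-17).

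The calls on 2 abundant members, and on the less abundant Obp83cd, were less firm. Obp56d, at 0.45 (SE 0.14, adjusted p = 0.00333), and Obp56e, at 0.42 (SE 0.17, adjusted p = 0.0285), lost the call when the totals of protein-coding counts set the scale, and also without wild-type replicate 1 (adjusted p = 0.202 and 0.510). Leaving out Polr3D EY/+ replicate 1, or using TMM factors, also ended the call on Obp56e (adjusted p = 0.180 and 0.137). Obp83cd was called at 0.98 (SE 0.42, adjusted p = 0.0325). It lost the call with protein-coding totals, per transcript, without Polr3D EY/+ replicate 1 or 2, and without the RNA-Seq library of replicate 1 alone. Obp19c at 0.12 (SE 0.13), Obp57a at 0.10 (SE 0.22) and Obp18a at -0.04 (SE 0.25) were not called, and their sign changed with the scaling or with the libraries used. The member called lower was Obp56f, on 14 RNA counts, 12 of them in 1 library. Without wild-type replicate 1, which left 1 wild-type library in each assay, fewer of the 40 members were called higher.

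Between the genotypes, no expressed Obp gene was called in any contrast. Over all 40 members DESeq2 called 1 in RNA (of 39 with an adjusted p), 0 in footprints (of 40) and 0 in translation efficiency (of 39), where all features gave 1.02%, 0.362% and 0.303%. Translation efficiency here is the interaction of genotype and assay, the change in footprints beyond that in RNA. At an unadjusted p under 0.05 there were 2 members in each contrast (Obp51a and Obp19d in RNA, Obp56f and Obp18a in footprints, Obp51a and Obp56f in translation efficiency), against 1.61%, 2.92% and 1.65% of all features. The edgeR test called 0 members in each contrast. Its unadjusted p was under 0.05 for Obp51a in RNA, Obp18a in footprints, and both of them in translation efficiency. Over all features edgeR had 223, 664 and 391 at that p.

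The estimates were centred near 0. Over the 20 expressed members the log2 change in RNA, Polr3D EY/+ over wild type, ran from -0.51 to 0.26 with a median of -0.10, beside 0.00 over 9221 genes. Over the 17 with footprints, the footprint change ran from -0.80 to 0.90 (median -0.02, all genes -0.01) and the change in translation efficiency from -0.71 to 0.97 (median 0.01, all genes -0.01). Non-overlapping genotypes were seen in RNA for 5 of 20 members (Obp56d, Obp19d, Obp83cd, Obp19b and Obp83a), against 11.5% of all genes with the RNA minimum. In footprints they were seen for 2 of 17 (Obp99c and Obp18a), against 12% of all genes with both minimums.

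**Figure D3:**
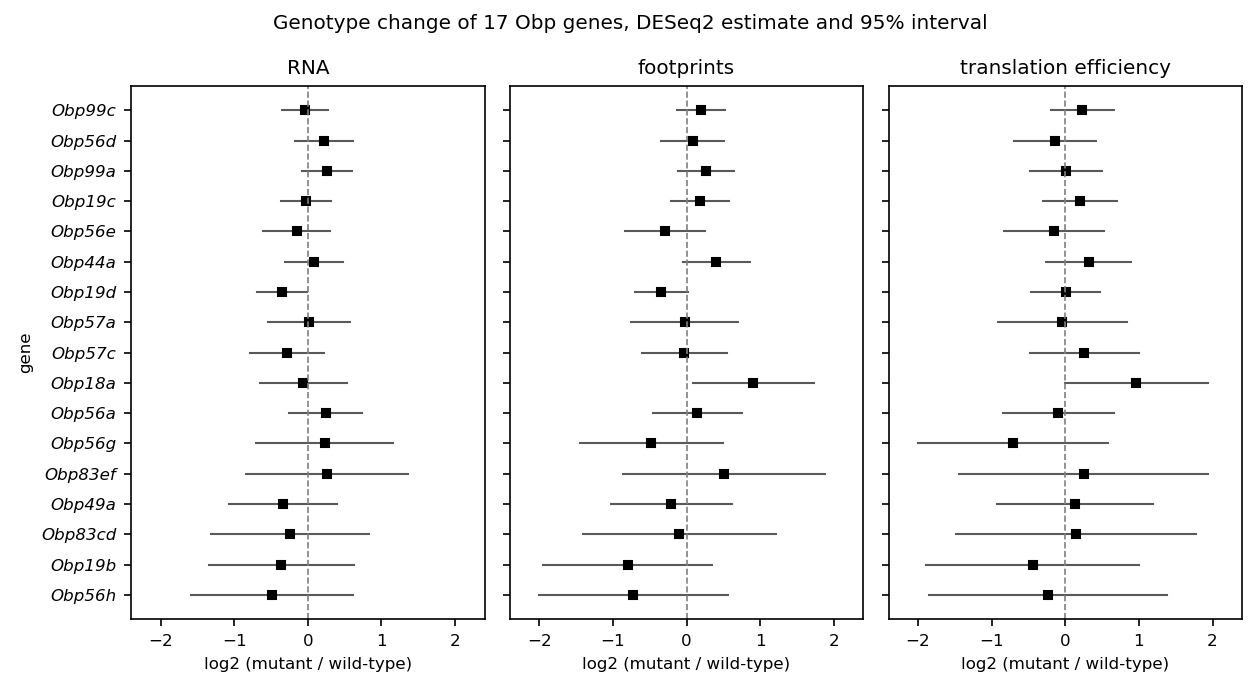
Log2 change between Polr3D EY/+ and wild type in RNA, footprints and translation efficiency for the 17 Obp genes with both minimums, highest RNA per kb at the top. Squares are DESeq2 estimates and lines 95% intervals, which widen towards the low members. Before adjustment the Obp18a footprint interval lies above 0 and the Obp19d RNA interval just below 0, and none passed adjustment over all genes.

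Obp99c, for which the precision was greatest, changed by -0.04 (SE 0.16) in RNA, 0.19 (SE 0.17) in footprints and 0.23 (SE 0.22) in translation efficiency on the log2 scale. The sign in RNA was positive without wild-type replicate 1 or without Polr3D EY/+ replicate 1. Obp19d, lower in all 3 Polr3D EY/+ RNA libraries than in both wild-type ones, changed by -0.35 (SE 0.17, unadjusted p = 0.046, adjusted p = 1.0). Its footprints changed by -0.34 (SE 0.18) and its translation efficiency by 0.00 (SE 0.24). Obp18a had the largest footprint change of the 17, with RNA at -0.06 (SE 0.30) and footprints at 0.90 (SE 0.42, unadjusted p = 0.031, adjusted p = 1.0). Obp18a footprints were at 10.03, 13.3 and 9.92 CPM in wild type and at 22.8, 17.2 and 28.6 CPM in Polr3D EY/+ flies, 13 to 55 counts a library. Precision differed between members, since standard errors over the expressed members ran from 0.16 to 1.23 in RNA and, over the 17 with footprints, from 0.17 to 0.70 in footprints.

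The 1 member called was Obp51a (2R from 15024375 to 15024839), a seminal fluid gene of the male accessory gland. In RNA it was at 0 counts in both wild-type libraries and in Polr3D EY/+ replicates 2 and 3, and at 61 counts in replicate 1, so that all of its RNA came from 1 library. Against a floor of 3 counts in each wild-type library, the Polr3D EY/+ mean was at least 7.27-fold higher (adjusted p = 0.0218). Without that library the fitted log2 change was -2.61 (adjusted p = 1.0), and edgeR gave an adjusted p of 1 with it. The call was also lost without wild-type replicate 1 (log2 0.40), without Polr3D EY/+ replicate 3 (8.53) or its Ribo-Seq library alone (8.54), each with an adjusted p of 1.0, and without wild-type replicate 2 no adjusted p was given. Footprints of Obp51a appeared in both genotypes, as 0, 9 and 0 in the wild-type and 0, 8 and 6 in the Polr3D EY/+ libraries (counts).

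The libraries that held Obp51a were those that held other male genes. Of 10 genes of the male accessory gland and ejaculatory duct and bulb, 9 had a row, and their summed counts were 3 and 1 in wild-type RNA and 632, 0 and 0 in Polr3D EY/+ RNA. In footprints the sums were 1, 105 and 0 in wild type and 1, 33 and 56 in Polr3D EY/+ flies. DESeq2 called 5 of these 9, and 5 of 10 testis markers, higher in Polr3D EY/+ RNA, against 0.89% of all features. It called 3 of the 9 gland genes lower in translation efficiency, against 0.296%. Obp56f followed with 1 and 1 RNA counts in wild type and 12, 0 and 0 in Polr3D EY/+ flies, Obp58b had 6 of its 7 RNA counts and Obp56c all 5 in the same library. The part of the male transcripts in these values was not tested, apart from leaving the libraries out.

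**Figure D4:**
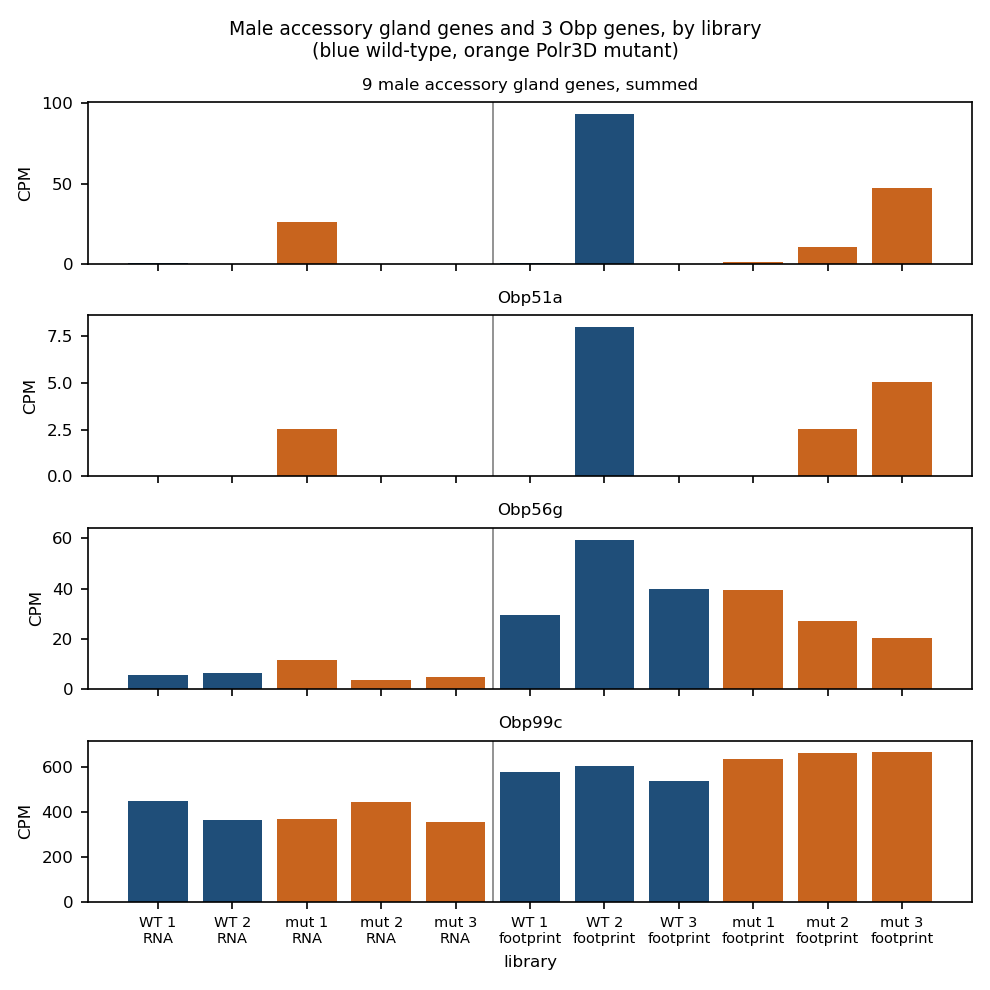
CPM in each library of 9 male accessory gland genes summed, Obp51a, Obp56g and Obp99c, with RNA-Seq left and Ribo-Seq right of the grey line, wild type in blue and Polr3D EY/+ in orange. Obp51a has bars in the 4 libraries where the gland genes have more than 3 counts, Obp56g RNA is highest in the same Polr3D EY/+ replicate 1, and Obp99c is present throughout.

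Obp56g (FBgn0034474, 2R from 19783484 to 19784043, minus strand) is made in taste organs and, in males, in the ejaculatory bulb, where it serves the mating plug. Its RNA was at 5.71 and 6.33 CPM in wild type and at 11.4, 3.45 and 4.83 CPM in Polr3D EY/+ flies, the highest coefficient of variation of the expressed members (47.5%). The high library was again Polr3D EY/+ replicate 1. Its footprints were at 29.4, 59.4 and 39.7 CPM in wild type and at 39.5, 27.3 and 20.2 CPM in Polr3D EY/+ flies, highest in wild-type replicate 2, the Ribo-Seq library with most gland counts. Neither RNA (log2 0.23, SE 0.48) nor footprints (-0.48, SE 0.50) were called. Unlike Obp51a it was present in every library. Its log2 footprints per RNA of 3.56 in wild-type replicate 2 set footprints with 105 gland counts against RNA with 1. In Polr3D EY/+ replicate 1 a ratio of 2.13 set footprints with 1 gland count against RNA with 632. Wild-type replicate 1, at 2.70, had at most 3 gland counts in each assay. Polr3D EY/+ replicates 2 and 3, at 3.31 and 2.41, set footprints with 33 and 56 gland counts against RNA with 0. Replicate 3 thus had a lower ratio than wild-type replicate 1, and its Obp56g footprints were the lowest (20.2 CPM). The part of male transcripts in these ratios was not tested. Leaving out the 4 libraries with gland counts keeps 1 Ribo-Seq library per genotype, so calls from that fit are not given.

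Some members changed their picture when transcripts were counted apart. The 2 transcripts of Obp56g code for proteins that differ by 1 codon (coding lengths of 393 and 396 nt). All footprints fell on FBtr0086342 in wild-type replicates 1 and 2 and Polr3D EY/+ replicates 2 and 3 (44, 67, 87 and 24 counts), and all fell on FBtr0086343 in wild-type replicate 3 and Polr3D EY/+ replicate 1 (52 and 45 counts). RNA counts were split between both in every library. On counts per transcript, FBtr0086343 was called higher in Polr3D EY/+ footprints (adjusted p = 1.52e-08) and in translation efficiency (adjusted p = 6.83e-05) on 1 library of the 10 in the model, while the gene's sum was not called.

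Of the 11 expressed members with several transcripts in the table, 7 had a transcript with RNA counts and 0 footprints in all 6 Ribo-Seq libraries (Obp19d, Obp44a, Obp56d, Obp56h, Obp57b, Obp83a and Obp99c). In 2 of them, Obp57b and Obp83a, that transcript held most of the gene's RNA. Obp57b has 2 transcripts with the same coding length of 423 nt, and the longer, FBtr0342691, had 170 and 108 RNA counts in wild type and 75, 150 and 108 in Polr3D EY/+ flies but 0 footprints in all 6 libraries. All Obp57b footprints were on FBtr0086293. For Obp83a most RNA was on FBtr0078656, which had 0 footprints, and all footprints were on FBtr0345251, which had 0 RNA counts. How the estimated counts were shared between transcripts of 1 gene was not tested. The summed counts and CPM of a gene do not depend on it. Values per kb and length-scaled footprints per RNA do, since the lengths were weighted by RNA counts per transcript. For Obp83a the coding length was thus 462 nt, while all footprints were on a transcript of 522 nt.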

How the data were processed

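The deposited table holds estimated counts of fragments per transcript, rounded to whole numbers. Per the study's methods the authors trimmed reads with Cutadapt and quantified both assays with Salmon on a decoy-aware BDGP6.32 index that included noncoding RNAs. Of 28367 rows, 28345 were matched to the Ensembl annotation of BDGP6 and summed per gene. Counts shared between overlapping or near-identical features cannot be checked from this table.

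Following the study's model, DESeq2 (1.42.0, R 4.3.3) was fitted to all genes in 10 libraries, with replicate number, genotype, assay and their interaction. Wild-type replicate 3 was left out of the fit, as in the study, though its footprint values are printed. The tests were two-sided, with Benjamini-Hochberg adjustment over all genes at a false discovery rate of 10%. The fit and edgeR (4.0.16) were tested on simulated data.

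Members and lists were chosen with earlier results of these data known. Named with full values were the 10 members highest in RNA per kb, each member called between genotypes, and the 3 highest and 3 lowest in footprints per RNA. Members singled out for non-overlap, isoforms or male tissue, and Ir7b, were chosen after their values were seen. Alternatives changed the tool, size factors, filters, libraries, block and counting unit. The floor of 3 counts covers counting error only.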

Additional observations from a re-analysis of the deposited data

How the results depend on the processing

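No pairing by replicate number was seen, as same-numbered libraries of the 2 genotypes deviated with correlations of -0.65 to 0.06. The 2 wild-type RNA-Seq libraries deviate as mirror images of each other, so in RNA these values cannot settle whether the numbers pair samples. Without the replicate block no Obp gene was called in RNA (0, against 1), and the Obp51a change was 6.88 on the log2 scale (adjusted p = 1.0).

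The RNA count of 1 (Obp51a) was 0 with edgeR, with a minimum of 10 counts in each assay, without Polr3D EY/+ replicate 1 in RNA-Seq, and in 2 fits chosen after seeing the data (without the 4 libraries with gland counts, which gave no value for Obp51a, and without Polr3D EY/+ replicate 3 in Ribo-Seq). Leaving out 1 replicate gave 0 to 1. The footprint count of 0 was 1 with all 11 libraries (Obp56f, 2 counts in 1 library), 1 per transcript (Obp56g) and, added later, 1 without wild-type replicate 2 in Ribo-Seq (Obp51a). Translation efficiency gave 2 per transcript (Obp56g and Obp51a, at -18.80) and otherwise 0. No expressed gene sum was called in any contrast between genotypes under any of these settings.

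The number called higher in footprints than in RNA was 15 to 19 without 1 Polr3D EY/+ replicate, against 30.1% to 31.3% of all features. It was 16, against 27% of all features, when protein-coding totals set the scale. Fits without a wild-type replicate keep 1 wild-type library per assay, and their counts of calls are not given. The number called lower was 1 (Obp56f). It became 2 with TMM factors, with protein-coding totals or with all 11 libraries (Obp56f and Obp57b each time). Per transcript it was 6, namely Obp56f and the expressed members Obp19c, Obp56g, Obp57b, Obp83a and Obp99a. Of these, Obp19c, Obp56g, Obp83a and Obp99a also had a transcript called higher. With edgeR, without the replicate block, or without Polr3D EY/+ replicate 1 in RNA-Seq the number called lower was 1, the expressed member Obp57b. It was 0 with the minimum of 10 counts, without any 1 Polr3D EY/+ replicate, or without Polr3D EY/+ replicate 2 or 3 in Ribo-Seq. In these settings 28.8% to 38.8% of all features were called lower. In the same contrast Obp19c was -0.015 with edgeR, -0.013 with TMM factors and -0.11 with protein-coding totals. Obp57a was -0.034 with edgeR, -0.032 with TMM factors, -0.13 with protein-coding totals, -0.17 per transcript, -0.046 without wild-type replicate 2 in Ribo-Seq, and -0.11 to 0.30 without 1 replicate. Obp18a was 0.078 without Polr3D EY/+ replicate 2 in Ribo-Seq, and -0.18 to 0.10 without 1 replicate. The cause was not tested.

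Between genotypes, Obp51a RNA (18.17) was -2.16 (without Polr3D EY/+ replicate 1) to 30 without 1 replicate, a fitted value that is no bound, and -2.61 without that replicate's RNA-Seq alone. Its translation efficiency, -18.78, was -15.58 to 3.22 without 1 replicate (1.64 without Polr3D EY/+ replicate 1), 1.87 without that replicate's RNA-Seq and 9.51 without wild-type replicate 2 in Ribo-Seq. Obp99c RNA was -0.30 to 0.23 without 1 replicate (0.14 without Polr3D EY/+ replicate 1) and 0.046 without that replicate's RNA-Seq. Of 393 alternative values of single genes 353 kept sign and call.

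A minimum of 5 CPM left 13 members expressed. With a pseudocount of 5 counts the median footprints per RNA was 1.61, and 0.43 over all genes. Without Obp99c the summed level was 568.9 and 580.3 CPM in RNA and 995.5 and 976.5 CPM in footprints (wild type, Polr3D EY/+). With medians-of-ratios factors the sum in Polr3D EY/+ RNA was 891.0 CPM, against 969.6 CPM for the same libraries on the main scale. It is not comparable with the wild-type RNA sum on the main scale. In footprints the sums with these factors were 1715 and 1772 CPM (wild type, Polr3D EY/+). Over all genes the calls ranged from 4 to 490 in RNA, 2 to 702 in footprints and 0 to 483 in translation efficiency, the highest per transcript. In RNA they were 135 in the main model, 15 with edgeR, 23 with the minimum of 10 counts, 66 with all 11 libraries and 41 without the block. In translation efficiency they were 41, 4, 1, 10 and 7.

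Depth limits the low members most, since 7 to 20 footprints a library stand behind Obp56h, and the widest standard error of a log2 footprint change among the 17 was 0.70.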
